A study of Mus musculus with 2 samples.

Results

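The miRNA genes examined here are the hairpins of the repetitive cluster inside Sfmbt2, the gene of a Polycomb group protein, in mouse embryonic kidney. A gene was counted as a member when its annotated miRNA hairpin lay within the bounds of Sfmbt2 on mm10 chromosome 2 (10370510 to 10595253) and on the same strand, the plus strand. By that rule 107 of the 1973 miRNA genes in the count tables were members. The rule uses position and strand alone. Of these, 59 carry 1 of the 4 symbol prefixes Mir297, Mir466, Mir467 and Mir669, with 5, 20, 14 and 20 genes. The remaining 48 carry Gm names. GENCODE release M21 places 119 miRNA genes within these bounds, counted without regard to strand. The other 12 either have no row in the count tables or lie on the other strand, and were not analysed as members.

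Small RNA of less than 30 nucleotides was sequenced from kidneys of B6NCrl embryos at 14.5 days, with no treatment or genotype named in the labels. There was 1 group of 2 biological replicates, each from 2 kidneys, collected on different dates. The labels speak of a single pup per sample, of material of both sexes, and of 1 donor identifier for both, so the number of embryos behind each library is not settled. Each SD is the spread between these 2 libraries, which may be partly technical.

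Sfmbt2 is imprinted, with expression from the paternal copy in early embryos and extraembryonic tissues, and the miRNAs of its intron are known mainly from the placenta. The cluster is specific to rodents. Its hairpins arose by repeated duplication and are rich in runs of alternating G and T or C and A. A miRNA hairpin is cut out of the primary transcript by Drosha and trimmed by Dicer, and bases 2 to 8 of the mature strand, the seed, guide it to its target messenger RNAs.

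RefSeq mature sequences (GRCm38.p6) were matched by symbol to 0 of the 107 members and are given for 8 of the 10 genes with these prefixes that lie outside Sfmbt2. Those 8 are printed because they show the repetitive makeup of the Mir466, Mir467 and Mir669 families. Each is written 5′ to 3′ with the seed in capitals.
Mir467f: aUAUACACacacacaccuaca
Mir467g: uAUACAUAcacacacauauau
Mir467h: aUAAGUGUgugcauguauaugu
Mir466i: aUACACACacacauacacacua
Mir466j: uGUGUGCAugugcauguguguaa
Mir466k: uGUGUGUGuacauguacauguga
Mir466q: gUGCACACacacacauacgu
Mir669n: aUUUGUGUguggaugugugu

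The 8 seeds are all different. Mir467f lies at chr11:69635419-69635439 and Mir467g at chr5:34732872-34732892, both on the minus strand. The others lie on the plus strand, Mir467h at chr9:115381898-115381919, Mir466i at chr13:17747552-17747573 and Mir466j at chr10:60960802-60960824. Chromosome 3 holds Mir466k (chr3:85467396-85467418), Mir466q (chr3:28419988-28420007) and Mir669n (chr3:115979905-115979924). The sequence given for Mir466i is that of miR-466i-3p. For Mir297-1 and Mir466f-4 none is given, because an entry was absent or was left out by its listed chromosome.

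The letters of these seeds recurred inside the hairpins of the cluster. Searched on the hairpin's own strand, as overlapping exact matches at any position, the seed of Mir467g stood in 66 of 107 member hairpins (61.7%) and in 3.36% of the other 1787 hairpins. The seed of Mir466j stood in 52 members (48.6%, against 2.18% elsewhere) and that of Mir466i in 51 (47.7%, against 5.43%). The seed of Mir467h stood in 1 member hairpin, that of a detected gene. No member hairpin held any of the 8 mature sequences whole. A match of these letters is a description of the hairpin and not evidence of a mature miRNA with that seed.

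The hairpins sat close together within a single intron. They spanned 52.99 kb, from 10465287 to 10518279, and none overlapped an exon of any of the 7 annotated Sfmbt2 transcripts. In 2 coding transcripts all 107 fell in 1 intron of 62472 bases (10461473 to 10523944), between exons 10 and 11 of one and exons 11 and 12 of the other. The 10 genes Mir467a-1 to Mir467a-10 recurred at a median start-to-start distance of 2462 bases (range 2413 to 4880). Together they mark a tandem array of 27.0 kb that holds 55 of the members.

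Read counts from the cluster were modest and came from few hairpins. On the strand of the genes its counts were 27527 and 21164 in replicates 1 and 2, out of 5202588 and 3683978 counts on annotated miRNA genes. That was 0.529% of the counts of replicate 1, with a Clopper-Pearson 95% interval from 0.523 to 0.535. In replicate 2 it was 0.574%, with an interval from 0.567 to 0.582. The mean share was 0.552% ± 0.0321 (SD, n = 2). On the opposite strand its members had 0 counts in either library, which allows up to 3 counts in each. Intervals and floors cover counting error only, because reads amplified by PCR without molecular identifiers are not independent molecules.

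A count of at least 10 in each replicate was required to call a gene detected. By that rule 10 of 107 members (9.35%) were detected, against 17.5% of all 1973 annotated miRNA genes. A further 18 members had some count, and 79 had none in either library. Some count in either library was thus seen in 28 of 107 members (26.2%), against 716 of all 1973 genes (36.3%). A count of 0 allows up to 0.577 CPM (counts per 1000000 own-strand counts) in replicate 1 and 0.814 CPM in replicate 2. This floor covers only reads assigned to a gene, because reads that map to several places are tallied apart. Of the 79 members without a count, 41 have no stretch of 21 bases that is unique among annotated miRNA hairpins. For these a count of 0 sets no limit on abundance. The 10 detected members held 99.8% of the cluster's counts in each replicate.

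**Figure D1:**
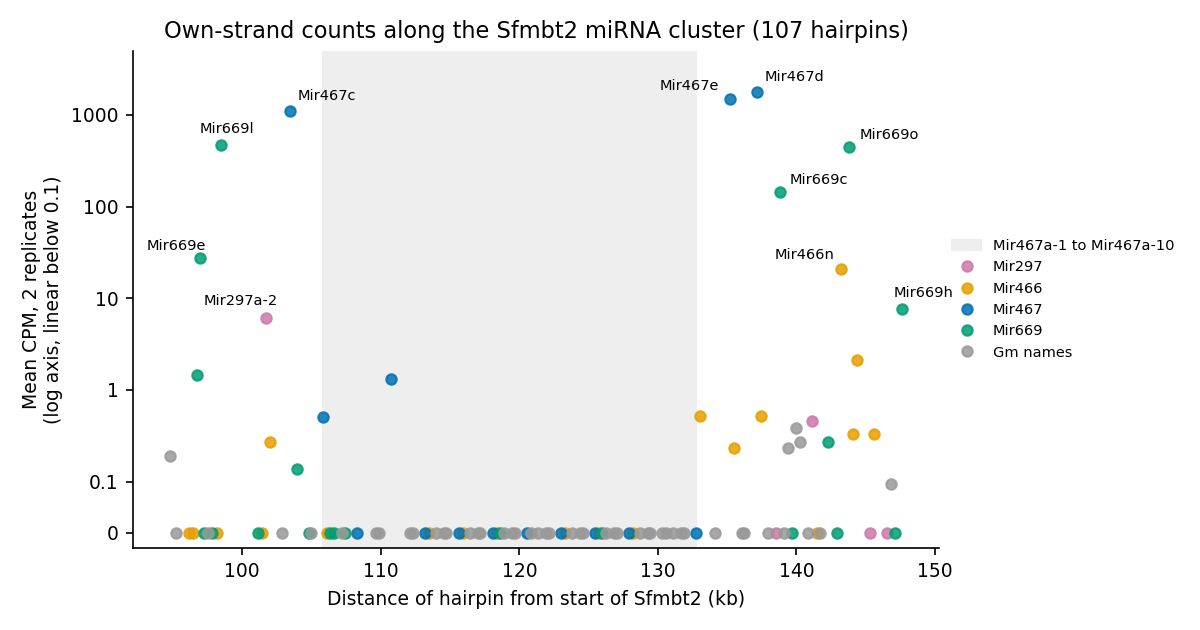
Mean CPM of each of the 107 hairpins (vertical, log axis that is linear below 0.1) against its distance from the start of Sfmbt2 in kb (horizontal), coloured by symbol prefix, with the stretch from Mir467a-1 to Mir467a-10 shaded. The 10 labelled detected members lie on either side of the shaded stretch, where 53 of 55 hairpins sit at 0. Of these 55, 40 have no stretch of 21 bases that is unique among annotated miRNA hairpins.

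Counts came from both flanks of the array and hardly at all from within it. The 20 members upstream of Mir467a-1 had 8041 counts in replicate 1 and 6171 in replicate 2, and 4 were detected. The 32 members downstream of Mir467a-10 had 19477 and 14986 counts, and 6 were detected. The 55 members of the array had 9 and 7 counts in all, from Mir467b (8 and 4) and Mir467a-1 (1 and 3). The flanks' shares of the cluster scarcely moved between the libraries, at 29.2% ± 0.0377 upstream and 70.8% ± 0.0374 downstream (SD, n = 2). The array was taken from gene symbols, but the comparison was made after the values were seen and carries no test. The stretches also differ in shared sequence, and reads that map to several places are not in these counts. No stretch of 21 bases is unique among annotated miRNA hairpins in 40 of the 55 array members. That holds for 0 of the 20 upstream and 2 of the 32 downstream members. The part of shared sequence in this pattern was not tested.

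The Mir467 family led the cluster in counts assigned to genes. Its 14 genes had 21587 counts in replicate 1 and 17098 in replicate 2, which is 79.6% ± 1.67 of the cluster's counts (SD, n = 2). The share was 78.4% in replicate 1 (interval 77.9 to 78.9) and 80.8% in replicate 2 (80.3 to 81.3), a difference larger than counting error. Almost every one of these counts came from 3 genes, Mir467d, Mir467e and Mir467c, with 21578 and 17091 counts together. The order of the families leaves out reads that map to several places. No 21-base stretch is unique among annotated miRNA hairpins in 10 of 14 Mir467 and 4 of 20 Mir669 genes. That holds for 6 of 20 Mir466 and 0 of 5 Mir297 genes.

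Mir467d (ENSMUSG00000077021.2, 10507630 to 10507714) was the most abundant member, with 8322 counts in replicate 1 and 7268 in replicate 2. That was 1599.6 and 1973 CPM, a mean of 1786 ± 264 CPM (SD, n = 2), which placed it 64th among all miRNA genes. Of the 3 leading genes it had the largest SD, with the higher value in replicate 2.

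Mir467e (10505721 to 10505807), the nearest Mir467 gene upstream of it, had 7768 and 5551 counts. Its 1493 and 1507 CPM lay close together, at a mean of 1500.0 ± 9.68 CPM (SD, n = 2). Their hairpins are 92.0% identical, the highest value among the 45 pairs of detected members.

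Mir467c (10473931 to 10474027) lies on the other side of the array and had 5488 and 4272 counts. It stood at 1055 and 1160 CPM, a mean of 1107 ± 74.1 CPM (SD, n = 2). Its hairpin is 83.5% identical to that of Mir467d and 83.7% identical to that of Mir467e.

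The other members of the family were at or near 0. Mir467b had 8 and 4 counts and Mir467a-1 had 1 and 3, while Mir467a-2 to Mir467a-10 had none. The 10 Mir467a genes comprise 3 distinct hairpin sequences, with a median pairwise identity of 98.8%. Gm25022, with 0 counts, has the same hairpin as 6 other members. Against the Mir467a copies, the hairpin of Mir467d had a median identity of 85.4%, that of Mir467e 81.1% and that of Mir467c 73.3%.

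The Mir669 family ranked below Mir467 and had the most detected genes, 5 of 20. Its genes summed to 5765 and 3948 counts in replicates 1 and 2, or 19.8% ± 1.62 of the cluster (SD, n = 2). The intervals of its share in replicate 1 (20.5 to 21.4) and replicate 2 (18.1 to 19.2) did not overlap.

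Mir669l and Mir669o were the leading genes of this family and lie on opposite flanks of the array. Mir669l (10468971 to 10469068) had 2397 and 1748 counts, or 461 and 474 CPM. Mir669o (10514300 to 10514395) had 2382 and 1566 counts, or 458 and 425 CPM. Their means, 468 ± 9.73 and 441 ± 23.2 CPM (SD, n = 2), differed by 26.1 CPM, less than the sum of their SDs. Their hairpins are 81.8% identical.

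Mir669c (10509296 to 10509404) followed with 824 counts in replicate 1 and 478 in replicate 2, at 158 and 130 CPM. Mir669e (10467495 to 10467613), the detected member nearest the upstream end, had 120 and 116 counts, at 23.1 and 31.5 CPM. Mir669h (10518155 to 10518279), the hairpin at the downstream end, had 38 and 29 counts, at 7.30 and 7.87 CPM. Mir669c had the lower and Mir669e the higher CPM in replicate 2, and Mir669h differed little. Of the rest of the family, Mir669f had 4 and 8 counts, Mir669m-1 had 0 and 2, Mir669a-3 had 0 and 1, and 12 genes had none.

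The Mir466 family had as many genes as Mir669 and far fewer counts, 135 in replicate 1 and 89 in replicate 2, or 0.455% ± 0.0494 of the cluster (SD, n = 2). Most were from Mir466n (10513741 to 10513834), the only detected gene of the family, with 111 and 74 counts at 21.3 and 20.1 CPM. Mir466h had 11 counts in replicate 1 and 8 in replicate 2, just under the minimum in the latter. Mir466b-3 and Mir466 had 4 and 1 counts each, and Mir466g and Mir466l had 2 and 1 each. Mir466p had 1 in each and Mir466o had 0 and 2. The other 12 genes of the family had no count.

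The Mir297 family was represented by Mir297a-2 (10472254 to 10472343), with 30 counts in replicate 1 and 24 in replicate 2, at 5.77 and 6.51 CPM. Mir297b had 2 counts in each library, and Mir297a-3, Mir297a-4 and Mir297c had none. The family held 0.120% ± 0.00467 of the cluster (SD, n = 2). Among the 48 genes with Gm names none was detected, against 17.5% of all 1973 annotated miRNA genes. In 22 of the 48 no 21-base stretch is unique among annotated miRNA hairpins, so a count of 0 sets no limit there. Gm22239 led the 48 with 4 and 0 counts, and Gm22072, Gm22925, Gm25263 and Gm24806 had 1 or 2 counts in a library.

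**Figure D2:**
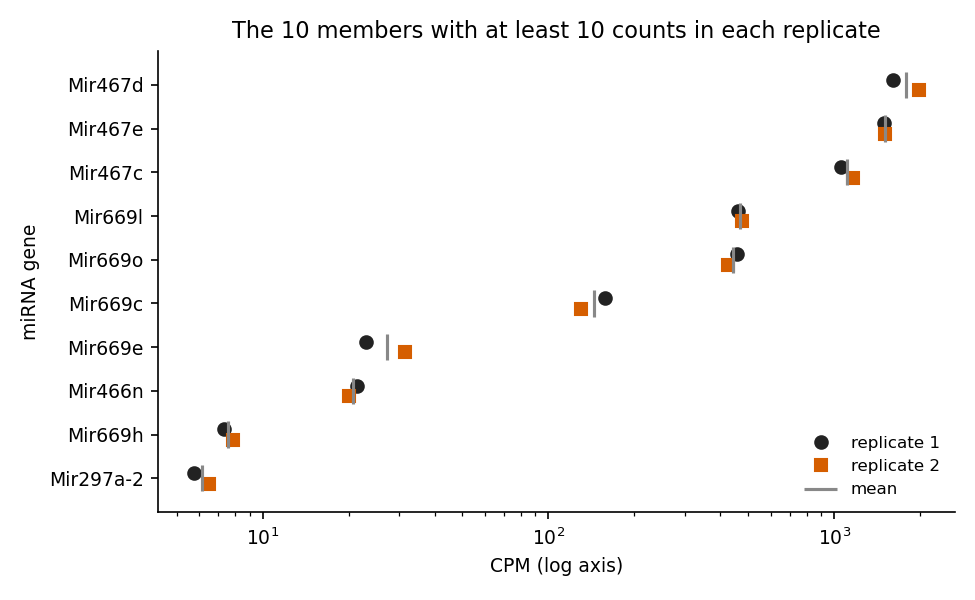
CPM of the 10 detected members (horizontal, log axis) in replicate 1 (circles) and replicate 2 (squares), with a line at the mean of the 2 values. The replicates lie close together on this wide axis, though Mir467d had 1599.6 and 1973 CPM and Mir669e 23.1 and 31.5 CPM. The order runs from Mir467d at 1786 CPM to Mir297a-2 at 6.14 CPM.

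The order of the 10 detected members was the same in each replicate. From the highest mean it ran Mir467d, Mir467e, Mir467c, Mir669l, Mir669o, Mir669c, Mir669e, Mir466n, Mir669h and Mir297a-2. Among neighbours in that order, Mir669l and Mir669o, and Mir669e and Mir466n, differed by less than the sum of their SDs. Mir467d exceeded Mir467e by 286 CPM against a summed SD of 274 CPM, a narrow margin with 2 libraries. The largest step was from Mir669c to Mir669e, 5.28-fold. CPM compares reads, and unequal cloning or mapping of different hairpins was not measured. In a whole organ, fewer cells of a type and less RNA per cell cannot be told apart.

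How much of a hairpin's sequence is its own differed widely among members. Reads that map to several places have a tally of their own in the tables, apart from genes, and they made up 28.3% of reads in replicate 1 and 27.5% in replicate 2. Of the 107 member hairpins, 105 (98.1%) share at least 1 stretch of 21 bases, on either strand, with another annotated miRNA gene, against 45.7% of the other 1787. In 42 members no 21-base stretch is unique among annotated miRNA hairpins, and 40 of these lie in the array. Those 42 genes had 1 count in replicate 1 and 3 in replicate 2, from Mir467a-1.

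The detected members were partly unique. In all 10 some stretches of 21 bases occurred in no other annotated miRNA gene, from 34.3% in Mir297a-2 to 96.0% in Mir669e. Mir467d reached 1786 CPM with 38.5% of its stretches unique, while Mir467e had 58.2% and Mir467c 61.0%. All 10 Mir467a copies had 0%, and Mir467b had 20.8%. How many of the reads tallied as mapping to several places came from the cluster was not measured, and the part of shared sequence in the members' counts was not tested.

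The detected share was highest among members with the most unique sequence, and many of these still had few or no counts. Of the 26 members with at least 50% unique stretches, 8 were detected (30.8%), compared with 2 of 39 members between 0 and 50% and 0 of the 42 with none. Over all 1973 annotated miRNA genes 17.5% were detected. Of the 18 more unique members that were not detected, 10 had no count at all, and the highest count among them was 11. Mir466g and Gm22239, whose 21-base stretches are all unique, had 2 and 1 and 4 and 0 counts. The comparison covers annotated hairpins only, and copies elsewhere in the genome were not searched. It was made over whole hairpins, so the mature strands of a hairpin with many unique stretches may still be shared.

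**Figure D3:**
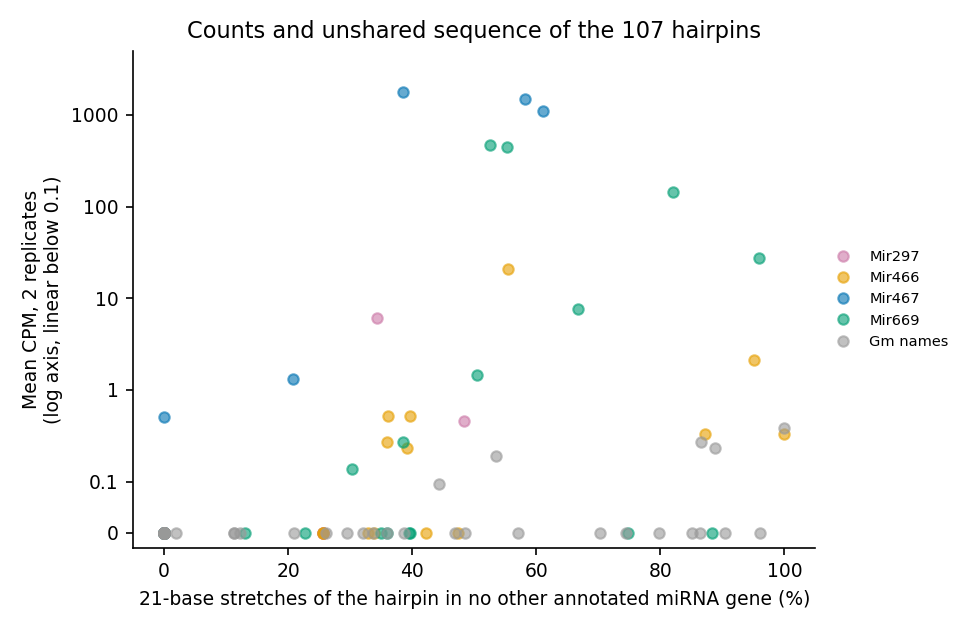
Mean CPM of each member (vertical, log axis that is linear below 0.1) against the percentage of its 21-base stretches found in no other annotated miRNA gene (horizontal), coloured by symbol prefix. The points at 0% unique stand for 42 hairpins, 41 of them without a count, and several hairpins above 80% also have none.

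In other features of the hairpins, detected and undetected members overlapped. The motif TGTGTG was in 98 of 107 member hairpins (91.6%) and in 12.7% of the others in the tables, and CACACA was in 87 (81.3%) against 8.06%. Both were read on the hairpin's own strand, each being the other's reverse complement, with overlapping matches allowed. TGTGTG was in 9 of 10 detected and 89 of 97 undetected members. The median share of bases inside either motif was 26.8% in detected members (range 14.3 to 37.5) and 19.8% in undetected members (0 to 48.9). Predicted folding energy had a median of -4.02 kcal/mol per 10 bases in detected members (-5.73 to -2.63) and -3.60 in undetected members (-5.42 to -2.09), so the ranges overlapped. Median hairpin length was 96.5 bases in detected and 102 in undetected members.

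To compare the replicates, each gene's counts entered an exact binomial test, two-sided, and p-values were adjusted over all 345 detected miRNA genes. A call required both an adjusted p under 0.05 and a change of 1 or more on the log2 scale. The test takes only counting error into account and compares 2 libraries, not conditions. None of the 10 detected members was called, against a background of 2.32% of the 345 genes. At an unadjusted p below 0.05 in the exact binomial test there were 5 of the 10 members, against 198 of 345 genes (57.4%). In edgeR's exact test with an assumed coefficient of variation of 0.2, 0 members passed an adjusted p of 0.05, against 2 of 345 genes (0.58%).

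With no minimum of the ratio, 4 of 10 members passed the exact test, 3 higher and 1 lower in replicate 2, against 53.6% of all 345 genes. In Mir467d the log2 ratio, taken as replicate 2 over replicate 1, was 0.31 (95% interval 0.26 to 0.35, exact test adjusted p = 3.78e-39). Mir467c had 0.14 (0.08 to 0.20, exact test adjusted p = 5.03e-06) and Mir669e 0.44 (0.07 to 0.84, exact test adjusted p = 0.0328). Mir669c was lower in replicate 2, at -0.28 (-0.45 to -0.12, exact test adjusted p = 0.00162). With DESeq2 size factors Mir669e no longer passed (exact test adjusted p = 0.0538) and Mir669o did (-0.14, exact test adjusted p = 0.00817).

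The members' median log2 ratio was 0.07 (range -0.28 to 0.44), beside 0.02 (-1.65 to 4.24) over all 345 genes, a set that includes them. The members' median absolute ratio was 0.12 beside 0.23. The sets were not matched for abundance. With 1 library on each side, edgeR's exact test rests on a spread that was assumed, or estimated from these same libraries (0.199), so a member that does not pass is not shown to be equal in both. Counts of the 2 libraries differed beyond counting error, with a chi-square of 46611 on 344 degrees of freedom over the 345 genes and 135 on 9 over the members. The libraries were counted as 2 samples, as labelled.

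**Figure D4:**
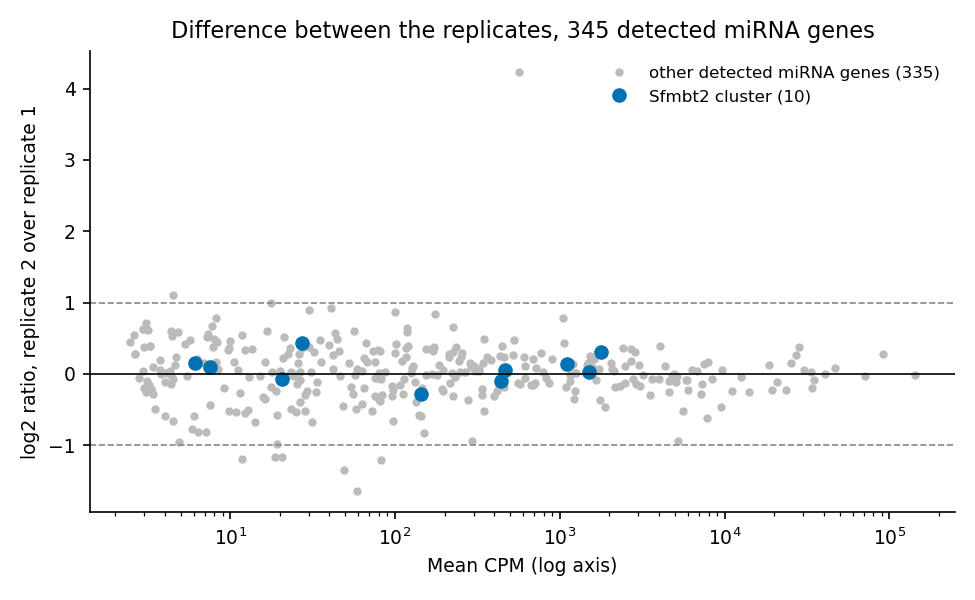
log2 ratio of replicate 2 over replicate 1 (vertical) against mean CPM (horizontal, log axis) for the 345 detected miRNA genes, with the 10 members in blue and dashed lines at a ratio of 1 in either direction. The members lie between -0.28 and 0.44, inside the dashed lines.

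Genes with the same prefixes elsewhere in the genome had no counts. All 10 of them, Mir297-1, Mir466f-4, Mir466i, Mir466j, Mir466k, Mir466q, Mir467f, Mir467g, Mir467h and Mir669n, had 0 own-strand counts in both libraries. Over all 1973 genes 36.3% had some count in either library. The floor given above covers only reads assigned to a gene. How much of the sequence of these 10 genes is unique was not measured, so their reads may be among those that map to several places. The Mir290 to Mir295 cluster, a group of miRNAs of the early embryo and trophoblast, had 28 and 17 counts over its 7 genes, and none was detected. That is 5.38 and 4.61 CPM in sum, beside 5291 and 5745 CPM for the Sfmbt2 cluster.

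The tissue label was checked against miRNA markers. All 4 listed genes of the trunk Hox clusters, all 5 of the epithelial miR-200 family, the endothelial gene Mir126a and all 4 stromal genes were detected. Of the 4 tubule genes 3 were detected, and the 4 summed to 353 and 490 CPM in replicates 1 and 2. Mir192 and Mir194-2 were higher in replicate 2 (log2 ratios 0.85 and 0.86), and Mir204 was lower (-0.20). The libraries differed in markers of other tissues: Mir122, a hepatocyte marker, had 56.3 and 1074 CPM in replicates 1 and 2, and the erythroid genes Mir451a and Mir144 summed to 154 and 73.0 CPM. The part of these differences in the members' ratios was not tested. Of the 7 trophoblast and early embryo markers, which are the Mir290 to Mir295 genes above, 5 had some count, and Mir290a and Mir291b were at 0.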

How the data were processed

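For each of 2 libraries of 1 group the authors deposited a table of raw counts of reads on miRNA genes, not normalized. Per the deposited file descriptions the assembly was mm10 and the annotation GENCODE M4; the aligner and counter were not given in the sources used here. The own-strand column was used, and 4 tally rows were left out. Positions came from GENCODE M21, also on mm10, in which 1894 of 1973 identifiers matched; the other 79 had at most 1 count. Each library's depth is given with the cluster's share.

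CPM used own-strand totals. Detection needed 10 counts in each replicate. The binomial test used library totals multiplied by TMM factors, which were 1.00 for each library. Log2 ratios used these scaled totals with a pseudocount of 1 CPM. Ratio intervals used the counts and the same scaled totals, without the pseudocount. Adjustment was Benjamini-Hochberg over 345 genes. Without a contrast between groups no quasi-likelihood fit in edgeR was possible. The binomial code was tested on simulated data. Hairpins from M21 transcripts were compared by 21-base stretches on both strands, by global alignment and with RNAfold.

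The members, lists and rules were chosen with earlier results of these data known. Named genes were all detected members, the leading gene of each prefix and of the Gm names, and same-prefix genes outside Sfmbt2. Undetected members with counts were named after their values were seen. Alternatives changed the strand, count minimum, scaling, pseudocount, test, denominator and members; 2 were added after the data were examined. The tools were RNAfold 2.7.2, Biopython 1.88, scipy 1.17.1 under Python 3.11.15, and DESeq2 1.42.0 and edgeR 4.0.16 under R 4.3.3.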

Additional observations from a re-analysis of the deposited data

How the results depend on the processing

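The cluster's share of own-strand counts, 0.552%, rose to 0.645% when Mir10a, the most abundant gene, was left out of the total, which is fixed by the smaller denominator. It was 0.529% to 0.574% with a replicate left out and stayed within 1 SD with unstranded counts. There only the total changed, as members had 0 opposite-strand counts. It also stayed within 1 SD with the 4 prefixes alone, or without members lacking a unique 21-base stretch. Both outcomes were fixed by the few counts removed. These were 8 and 3 in replicates 1 and 2 for Gm names, and 1 and 3 for members without a unique stretch. They say nothing about reads that map to several places. The number of detected members, 10, became 28 when any count in either library sufficed, or 26.2% against 36.3% of all 1973 genes. It was 10 to 11 with minimums of 5 or 20, unstranded counts or a replicate left out. The number of members called between replicates was 0 in every setting run, and the Mir467 share was 78.4% to 80.8% with a replicate left out. Of the 10 members' log2 ratios, all kept their side of the threshold with a pseudocount of 0.1 CPM or unstranded counts. With DESeq2 size factors 8 did, and Mir467e, which did not pass, changed sign from 0.02 to -0.02. The Mir467 share without members whose mature sequence recurs elsewhere was not run. No paired analysis was possible because there is only 1 group. With 2 libraries the SDs are imprecise, and a member at 0 counts may be present below 0.577 to 0.814 CPM, or in reads that map to several places.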
